A study of Homo sapiens with 2 samples.

Results

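The translation initiation and elongation factors comprised 58 of the 19775 genes named on the array. They were taken as all protein-coding genes whose symbol begins with EIF or EEF and a digit and that at least 1 probe set detects without sharing it with another gene. EIF4G3 is not analysed here. EEF1E1, which is a subunit of the aminoacyl-tRNA synthetase complex, and pseudogenes were left out. The Y-linked EIF1AY is counted as a member, but its level is not given, so that 57 members are described. Of these, 9 belong to eIF1, eIF5 and eIF6, 14 to eIF2, 13 to eIF3, 12 to eIF4 and 9 to the elongation factors with their modifying enzymes.

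Initiation factors load the initiator tRNA on the small ribosomal subunit, bring it to the capped end of the mRNA and let it scan to the start codon, where the large subunit joins. Elongation factors then deliver aminoacyl-tRNAs and move the ribosome along the message. Cells tune the process at a few points, chiefly by phosphorylating eIF2, by holding back the cap-binding protein with 4E-binding proteins and by phosphorylating eEF2, and the kinase mTOR acts on several of them.

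HT-29, an established human colorectal adenocarcinoma line, was grown as spheroids for 5 days on low-adhesion plates in stem cell medium with B27, EGF and FGF, or as a monolayer on tissue culture plates in medium with 10% fetal bovine serum. Growth form and medium therefore differed together and cannot be told apart. RNA of each culture was hybridised to an Affymetrix expression array that covers the human transcriptome, and 1 array per condition was analysed here, so that no difference has a replicate check and no test was run. Values are MAS5 signals, intensities on a linear scale, and differences are log2 of the spheroid signal minus log2 of the monolayer signal, where 1 means 2-fold higher in spheroids.

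Both arrays had a trimmed mean signal of 500.1, with medians of 64.4 on the spheroid array and 61.1 on the monolayer array. All 18 hybridisation spike-in probe sets, added in equal amounts by design, were lower on the spheroid array, by a mean log2 difference of -0.25. A floor of 62.7, the 50th percentile over both arrays, replaced any lower signal. The log2 differences of probe sets of one gene had an SD of 0.41 over 5506 genes, which describes disagreement between probe sets and is not a replicate error. EPCAM, CDH1, KRT8 and KRT18, markers of epithelium, were well above the floor in both conditions, while the intestinal marker KRT20 had 218.4 in spheroids and 99.6 in monolayer. CEACAM5 (105.5 in spheroids and 12.3 in monolayer) and CDX2 (80.0 in spheroids and 55.9 in monolayer) were above it in spheroids only, VIL1 (27.2 in spheroids and 100.5 in monolayer) in monolayer only, and CDX1 and LGALS4 in neither. Of the markers of fibroblasts, leukocytes and endothelium, COL1A1 had signals of 1972 in spheroids and 1370 in monolayer, ITGAM 97.5 in spheroids and 122.8 in monolayer and PECAM1 99.5 in spheroids and 123.7 in monolayer. COL1A2 was at 57.1 in spheroids and 64.9 in monolayer, and COL3A1, DCN, LUM, PTPRC, CD3E, CD14, CDH5 and VWF were under the floor on both. Their part in the results was not tested. Because RNA of whole cultures was measured, fewer cells of a type and less RNA per cell cannot be told apart.

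Many mRNAs of the translation machinery begin with a C followed by an unbroken run of pyrimidines, the terminal oligopyrimidine (TOP) tract, through which mTOR and LARP1 control their translation. The annotated transcript starts of the members were searched for such a start, a C at the first base and at least 4 further C or T bases, on the transcript strand only and in the RefSeq promoter table of GRCh38.p14. It was found in 11 of the 44 members with a listed start (25%), against 1404 of the 27305 genes in that table (5.14%). The definition was chosen after the signals had been seen. The windows of all 11 are shown because their genes are set apart from the other members later in the results. Each holds 10 bases before the annotated start and 20 from it, on the transcript strand, and capitals mark the tract.
EEF1A1, chr6:73521013-73521042, minus strand: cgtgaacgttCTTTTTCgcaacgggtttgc
EEF2, chr19:3985444-3985473, minus strand: cgtcagcgttCTCTTCCgccgtcgtcgccg
EIF2A, chr3:150546777-150546806, plus strand: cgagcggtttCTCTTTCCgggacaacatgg
EIF2D, chr1:206612446-206612475, minus strand: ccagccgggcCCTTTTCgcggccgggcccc
EIF2S3, chrX:24054946-24054975, plus strand: gatttccttcCTCTTTTggcaacatggcgg
EIF3D, chr22:36529147-36529176, minus strand: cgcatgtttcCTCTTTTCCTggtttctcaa
EIF3F, chr11:7987327-7987356, plus strand: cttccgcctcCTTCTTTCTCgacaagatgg
EIF3K, chr19:38619178-38619207, plus strand: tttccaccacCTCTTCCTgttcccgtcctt
EIF3M, chr11:32583821-32583850, plus strand: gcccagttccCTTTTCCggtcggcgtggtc
EIF4A2, chr3:186783567-186783596, plus strand: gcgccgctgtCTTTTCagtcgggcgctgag
EIF4B, chr12:53006446-53006475, plus strand: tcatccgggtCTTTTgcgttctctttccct
For contrast, 4 starts without the tract are shown, those of the members with the highest differences among genes with 1 listed start. Their differences decided the choice, so they do not show what members without the tract do as a set. Of the 33 measured ones without it, 20 were below 0 and 13 above, with EIF2B2 (-0.81) and EEF2K (-0.50) among the lower.
EIF4ENIF1, chr22:31489823-31489852, minus strand: gccgggctgcagttacggcggctgaagaga
EIF1AX, chrX:20141819-20141848, minus strand: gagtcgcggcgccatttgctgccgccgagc
EIF2AK3, chr2:88627445-88627474, minus strand: tgtccgagataggctgtcactcaggtggca
EIF1AD, chr11:66002138-66002167, minus strand: cagcgccggaagtacggttttcggagggat
The longest tracts, of 10 bases, were those of EIF3D and EIF3F, and the shortest, of 5 bases, was that of EIF4B. A match describes these letters at the annotated start and is not a measured start site.

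Translation factor genes differed little between spheroids and monolayer, and none was past the 2-fold threshold of the study in either direction. Of the 57 members described, 55 were above the floor on both arrays, EIF3C was above it on the spheroid array only, and EIF4A2 was under it on both. EIF3C and EIF4A2 each rest on the only probe set assigned to them alone. Probe sets shared with other genes were not examined, so a low signal does not show that the gene is silent. Of all 13183 genes that exceeded the floor on at least 1 array, 2.53% were higher by 2-fold or more in spheroids and 3.08% lower by as much. At 1.5-fold, EEF1AKMT1 and EIF5 were higher (2 of 56, against 9.53% of all genes) and EIF2D, EIF2B2, EIF4E3 and EIF4E2 were lower (4 of 56, against 11.6%). Of the 56 measured members, 19 had a difference above 0 (33.9%, against 45.2% of all genes), with a median of -0.11 beside -0.05 over all genes. Scaled to the spike-ins, which moved the median of all genes by 0.23 to 0.18, 34 of the 56 were above 0 (67.2% of all genes) and their median was 0.13. In 37 members the difference was within 0.41 of 0, which is 1 SD between probe sets of a gene.

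Bright genes differed less on these arrays than genes in general, and most members were bright. Of the members, 48 had a mean signal of at least 1000, and the SD of their differences was 0.35, beside 0.40 over the 5246 genes this bright and 0.51 over all measured genes. Among those genes 1.12% were higher by 2-fold or more and 0.686% lower by as much, and no member was either. EIF5 was the 1 bright member at least 1.5-fold higher (6.1% of bright genes), and 3 were at least 1.5-fold lower (6.14%). Differences above 0 were seen in 15 of the 48 members, beside 43.6% of bright genes.

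**Figure D1:**
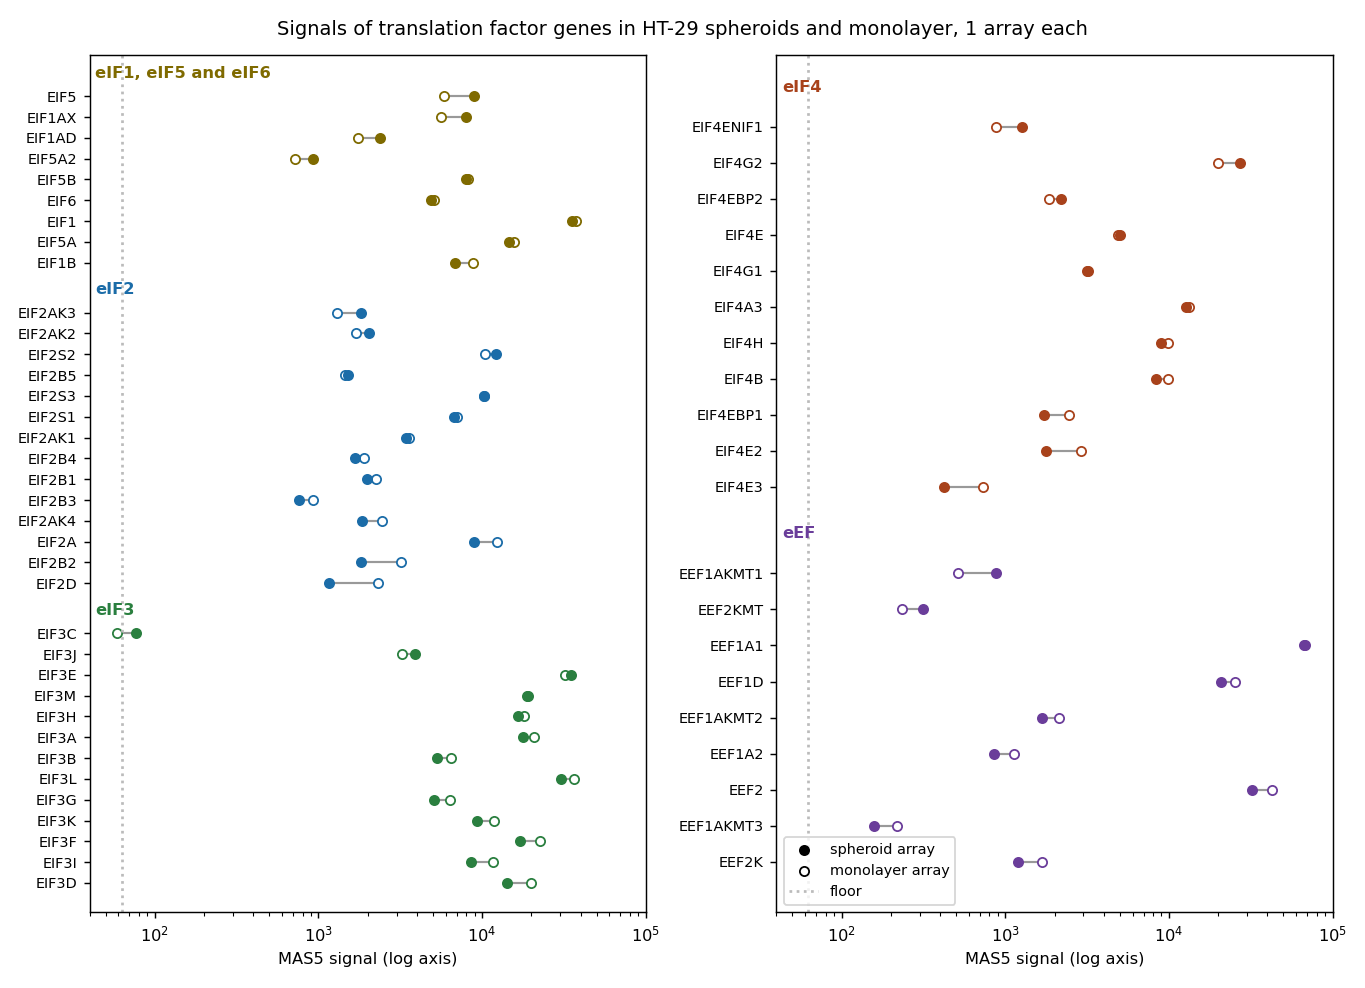
MAS5 signal (log axis) of each measured translation factor gene on the spheroid array (filled) and the monolayer array (open), by group and ordered by the difference, with the floor as a dotted line. Most pairs lie close together, EEF1A1 reaches 68130 in spheroids and 66510 in monolayer, and EIF2D, EIF2B2, EIF4E2 and EIF4E3 show the widest gaps with the spheroid point on the left.

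Among the factors of start codon selection and subunit joining, EIF5, the GTPase-activating protein of eIF2, was the highest in spheroids relative to monolayer. Its signal was 8970 in spheroids and 5849 in monolayer, a 1.53-fold difference (log2 difference 0.62). All 5 of its probe sets were higher in spheroids, with differences of 0.36 to 0.74. EIF1AX, the X-linked gene of eIF1A, which promotes scanning, had 8008 in spheroids and 5624 in monolayer (0.51), and its 4 probe sets were all higher, by 0.17 to 0.66. EIF1AD, a gene related in sequence to eIF1A, had 2387 in spheroids and 1739 in monolayer (0.46).

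Other genes of this group were level or lower in spheroids, except EIF5A2. EIF1, which guards the accuracy of start codon choice, had 35275 in spheroids and 37492 in monolayer (-0.09), while its paralog EIF1B had 6822 in spheroids and 8801 in monolayer (-0.37). EIF5B, the GTPase of subunit joining, had 7998 in spheroids and 8183 in monolayer (-0.03). EIF6, which keeps free large subunits from joining, had 4851 in spheroids and 5082 in monolayer (-0.07). The hypusine-carrying EIF5A, which helps the ribosome over difficult peptide bonds, was at 14591 in spheroids and 15716 in monolayer (-0.11), and its paralog EIF5A2 at 928.3 in spheroids and 720.3 in monolayer (0.37), with its 3 probe sets all higher. The 9 genes of this group had a median difference of -0.03 and a range of -0.37 to 0.62, with 4 above 0, and their median was above 0 when the arrays were scaled to the spike-ins (0.21), after quantile normalization (0.01) or with probe sets of a plain _at name only (0.17).

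In eIF2, which carries the initiator tRNA, the 3 subunits were near level. The alpha subunit EIF2S1, on which the stress kinases act, had 6750 in spheroids and 6982 in monolayer (-0.05) on its brightest probe set, whereas its other probe sets were higher in spheroids, by 0.43 and 0.90. EIF2S2 had 12163 in spheroids and 10453 in monolayer (0.22). EIF2S3, whose start holds a 7-base tract, had 10203 in spheroids and 10268 in monolayer (-0.01).

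The exchange factor eIF2B, which reloads eIF2 with GTP, was lower in 4 of its 5 subunits. Above 0 was 1 of the 5 (20%), beside 45.2% of all genes. The regulatory subunit EIF2B2 stood apart at 1808 in spheroids and 3173 in monolayer, 1.75-fold lower (-0.81), on its single probe set. EIF2B1 (-0.19), EIF2B3 (-0.27) and EIF2B4 (-0.17) were slightly lower, and the catalytic subunit EIF2B5 was at 1521 in spheroids and 1447 in monolayer (0.07). The median of the 5 was -0.19.

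The 4 kinases that phosphorylate eIF2 did not share a direction. EIF2AK3, or PERK, the sensor of unfolded protein in the endoplasmic reticulum, had 1822 in spheroids and 1306 in monolayer (0.48). EIF2AK2, or PKR, the kinase that binds double-stranded RNA, had 2029 in spheroids and 1694 in monolayer (0.26), although 1 of its 3 probe sets was lower (-0.42). EIF2AK4, or GCN2, the sensor of uncharged tRNA, had 1854 in spheroids and 2442 in monolayer (-0.40), and both of its probe sets were lower. For EIF2AK1, the heme-regulated kinase, the brightest probe set read 3448 in spheroids and 3588 in monolayer (-0.06) and the other 507.0 in spheroids and 247.7 in monolayer (1.03), so its direction depended on the probe set.

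EIF2D and EIF2A, which can place tRNA on the ribosome without eIF2, were both lower in spheroids. EIF2D was the member nearest to the 2-fold threshold, at 1168 in spheroids and 2310 in monolayer, 1.98-fold lower (-0.98). It rests on 1 probe set and passed 2-fold when the arrays were scaled to their medians or to GAPDH. EIF2A had 8872 in spheroids and 12282 in monolayer (-0.47). Both have a tract at the annotated start. Over the 14 genes of the eIF2 group the median was -0.12, with 4 above 0, and it was 0.13 when the arrays were scaled to the spike-ins.

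Subunits of eIF3, the large scaffold that binds the small ribosomal subunit, were lower in spheroids in 9 of 13 genes by small amounts. Above 0 were 4 of the 13 (30.8%), beside 45.2% of all genes. EIF3D, which can itself bind the cap of certain mRNAs, had 14276 in spheroids and 19939 in monolayer (-0.48). EIF3I had 8534 in spheroids and 11735 in monolayer (-0.46), and EIF3F had 17120 in spheroids and 22564 in monolayer (-0.40). EIF3K was lower on each of its 4 probe sets, by -0.42 to -0.31, with 9283 in spheroids and 11767 in monolayer on the brightest (-0.34). EIF3G, which contacts the scanning ribosome, was at 5071 in spheroids and 6407 in monolayer (-0.34).

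Other eIF3 subunits were closer to level. EIF3A and EIF3B, the core of the complex, had differences of -0.23 and -0.27, EIF3L had -0.27 and EIF3H had -0.12. EIF3E had 35090 in spheroids and 31869 in monolayer (0.14), and its dimmer probe set was lower (-0.42). EIF3M had 19076 in spheroids and 18816 in monolayer (0.02). EIF3J, a loosely bound subunit, was higher on both probe sets, with 3889 in spheroids and 3242 in monolayer on the brighter (0.26). For EIF3C, the only probe set assigned to it alone read 77.1 in spheroids and 58.6 in monolayer, where it was under the floor, so its difference is a bound of at least 0.30 and rests on a probe set near the floor.

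The 13 eIF3 genes had a median difference of -0.27, an SD of 0.27 across genes and none past 1.5-fold. Scaled to the spike-ins, the median was -0.02 and 6 of the 13 were above 0, beside 67.2% of all genes. With the median over probe sets, 5 of the 13 were above 0, beside 46.6% of all genes. Relative to all genes the eIF3 median lay between -0.23 and -0.11 in the settings tried.

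**Figure D2:**
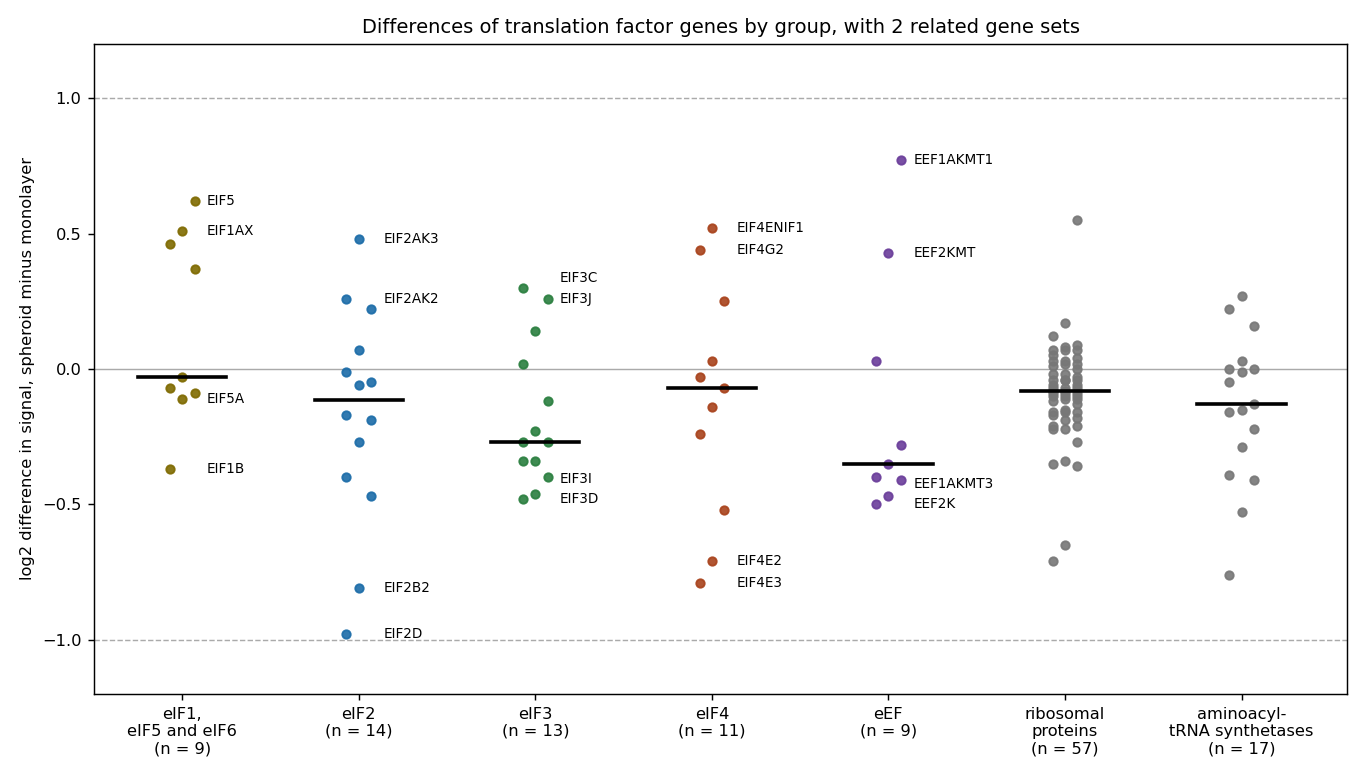
Log2 difference in signal, spheroid minus monolayer, of each measured gene (points) by group, with ribosomal proteins and aminoacyl-tRNA synthetases in gray. Black lines are medians, -0.27 for eIF3 and -0.35 for eEF against -0.08 for ribosomal proteins, and dashed lines mark 2-fold, which no point in these groups crosses. Many ribosomal protein signals are near the top of the arrays and may be saturated.

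In eIF4, the group that recognises the cap, the alternative cap-binding proteins were lower in spheroids. The cap-binding subunit EIF4E was level on its brightest probe set, with 5029 in spheroids and 4912 in monolayer (0.03). Its probe sets disagreed, since another of about the same brightness had 4372 in spheroids and 5625 in monolayer (-0.36). A dimmer one was at 0.19. EIF4E2, or 4EHP, which binds the cap without recruiting eIF4G and so acts as a repressor, had 1782 in spheroids and 2922 in monolayer, 1.64-fold lower (-0.71), and its 4 probe sets were all lower, by -1.16 to -0.09. EIF4E3, a further member of the family, had 422.0 in spheroids and 730.7 in monolayer, 1.73-fold lower (-0.79), with 3 of 4 probe sets lower. Its probe sets differed in size, since another of about the same brightness had 482.1 in spheroids and 560.4 in monolayer (-0.22). The median over its probe sets was -0.50.

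The inhibitors of eIF4E differed in direction. EIF4EBP1, the mTOR substrate that sequesters eIF4E, had 1721 in spheroids and 2461 in monolayer, 1.43-fold lower (-0.52), on 1 probe set. EIF4EBP2 had 2206 in spheroids and 1857 in monolayer (0.25), with 2 of 3 probe sets higher. EIF4EBP3 has no probe set assigned to it alone and is not described. EIF4ENIF1, the transporter that carries eIF4E into the nucleus and to P-bodies, was at 1261 in spheroids and 879.5 in monolayer (0.52).

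Of the scaffold genes, EIF4G2, which lacks the eIF4E binding site and serves cap-independent initiation, had 27174 in spheroids and 20023 in monolayer (0.44), whereas the canonical scaffold EIF4G1 had 3147 in spheroids and 3223 in monolayer (-0.03), with its other probe set at -0.44. EIF4B and EIF4H, cofactors of the eIF4A helicase, had differences of -0.24 and -0.14, and the 3 probe sets of EIF4B were all lower. EIF4A3, the helicase of the exon junction complex, had 12676 in spheroids and 13285 in monolayer (-0.07). EIF4A2 read 24.0 in spheroids and 13.9 in monolayer on its only probe set assigned to it alone, both under the floor, so no fold is given. The 11 measured eIF4 genes had a median of -0.07, with 4 above 0, and 0.18 when the arrays were scaled to the spike-ins.

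Elongation factors other than EEF1A1 were lower in spheroids. EEF1A1, which delivers aminoacyl-tRNA to the ribosome, gave the highest signal of the whole spheroid array, 68130, with 66510 in monolayer (0.03). Its next 3 probe sets were between 54468 and 60519 in spheroids and between 56130 and 59333 in monolayer, and differed by -0.05 to 0.03. Signals this near the top of the arrays, whose maximum was 68130 in spheroids and 68687 in monolayer, may be saturated, which was not tested. The dimmer probe sets of EEF1A1 had 1268 in spheroids and 1759 in monolayer (-0.47) and 296.6 in spheroids and 249.0 in monolayer (0.25). The tissue-restricted paralog EEF1A2 had 853.1 in spheroids and 1124 in monolayer (-0.40). EEF2, the translocase, had 32224 in spheroids and 42845 in monolayer, 1.33-fold lower (-0.41), and both of its probe sets were lower. EEF1D, a subunit of the exchange factor of eEF1A, had 20900 in spheroids and 25350 in monolayer (-0.28).

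The enzymes that modify the elongation factors spread more widely. EEF2K, the kinase that inhibits eEF2, had 1193 in spheroids and 1682 in monolayer (-0.50), with both probe sets lower, so that the kinase and its substrate were lower together. EEF1AKMT1, a lysine methyltransferase of eEF1A, was the highest of all members, at 878.8 in spheroids and 514.4 in monolayer, 1.71-fold higher (0.77), on 1 probe set. EEF1AKMT2 (-0.35) and EEF1AKMT3 (-0.47) were lower, and EEF2KMT, which methylates eEF2, was at 316.1 in spheroids and 234.2 in monolayer (0.43). The 9 genes of the eEF group had a median of -0.35, and with the spike-in scaling -0.10. Relative to all genes it lay between -0.37 and -0.28 in the settings tried, the lowest of the groups.

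Probe sets of one member often disagreed in sign, bright ones included. Of the 144 probe sets of members, 127 exceeded the floor in both conditions. Among the 34 members with at least 2 of these, 16 had all on one side of 0, of which 10 were lower and 6 higher in spheroids. The 88 probe sets with a mean signal of at least 1000 had an SD of 0.38 and the 39 dimmer ones an SD of 0.62. Past 2-fold were 3 higher and 3 lower probe sets, none of which was the one that stood for its gene. All 3 higher and 2 of the lower ones were dim. The share past 2-fold over all probe sets of the array was not computed, so these have no background beside them.

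The 6 probe sets past 2-fold belonged to 6 genes. EIF3F had 550.9 in spheroids and 234.2 in monolayer (1.23) on its dimmer probe set, EIF3M 176.2 in spheroids and 76.4 in monolayer (1.21), and EIF2AK1 the value of 1.03 already given. EIF1 had 216.8 in spheroids and 766.3 in monolayer (-1.82), against -0.18 to 0.16 on its other 5 probe sets. EIF4E2 had 972.4 in spheroids and 2173 in monolayer (-1.16), and EIF4E3 had 106.6 in spheroids and 226.3 in monolayer (-1.09). For EIF4E2 and EIF4E3 these lie on the same side of 0 as the brightest probe set, and for EIF3F and EIF2AK1 on the other. EIF5B spread from -0.72 to 0.69 over 6 probe sets, 1 higher and 5 lower. Which transcripts or related sequences the discordant probe sets detect was not tested.

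**Figure D3:**
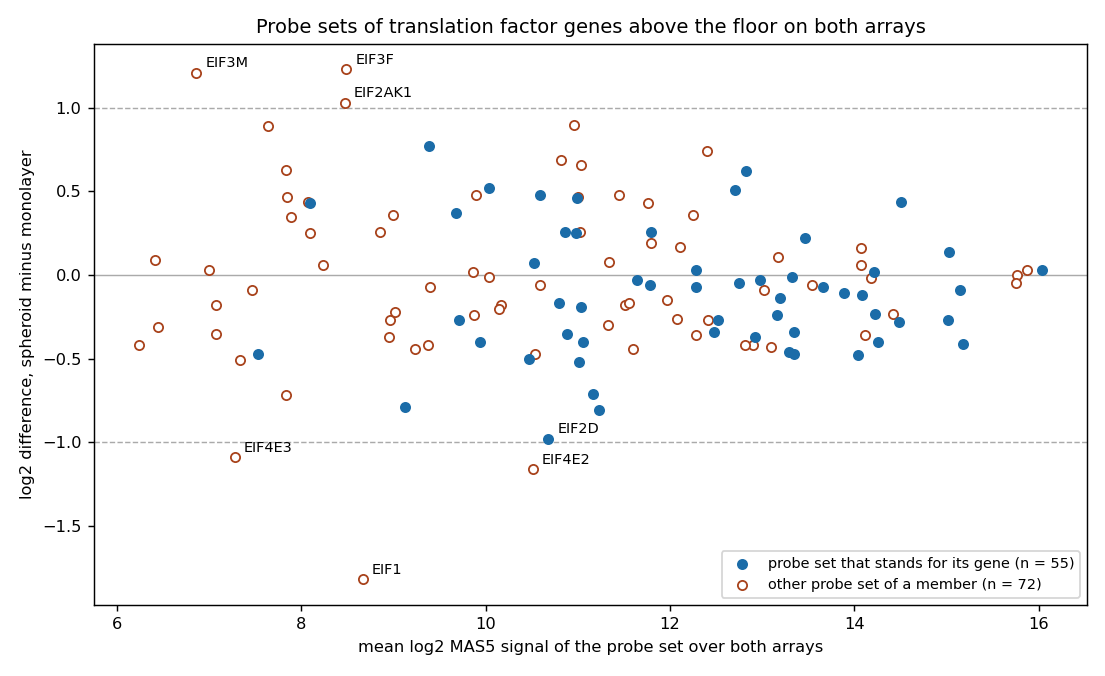
Log2 difference, spheroid minus monolayer, of the 127 member probe sets that exceeded the floor in both conditions, against their mean log2 signal over both arrays. The 55 filled points stand for their genes, the 72 open ones are other probe sets of members, and the 6 points outside the dashed 2-fold lines are all open.

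Members with a pyrimidine tract at the annotated start had a lower median difference than the other members. The tract was defined after the signals had been seen. The 10 measured members with it had a median difference of -0.37 (range -0.98 to 0.03), with 2 above 0, and the 33 without it had a median of -0.07 (range -0.81 to 0.62), with 13 above 0. EIF2D left out, the median of the members with the tract was -0.34. EEF1A1, EIF3M and EIF2S3 were near 0, and EIF4B, EIF3K, EIF3F, EEF2, EIF2A, EIF3D and EIF2D lay between -0.24 and -0.98. EIF3D, EIF3F, EIF3K and EIF3M are eIF3 subunits, and EEF1A1 and EEF2 are elongation factors. EIF2A and EIF2D were described above as lower, so the split is not independent of the groups.

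Other genes with such a start did not show a shift of that size. The 735 measured genes with the tract had a median of -0.08 and 41.5% above 0, beside -0.05 and 45.4% for the 9918 without it. Ribosomal protein genes with the tract, 34 in number, had a median of -0.08, and the 691 others that are neither ribosomal proteins nor members had -0.07. Many ribosomal protein signals are near the top of the arrays and may be saturated, which was not tested. Among the members themselves, a list of factors known for TOP mRNAs had 7 of 9 genes measured, with a median of -0.24 and 2 above 0. EEF1A1, EEF2, EIF3F and EIF4B of this list are among the 10 members with the tract, and EEF1D, EIF3E and EIF3H entered neither of the groups by start.

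**Figure D4:**
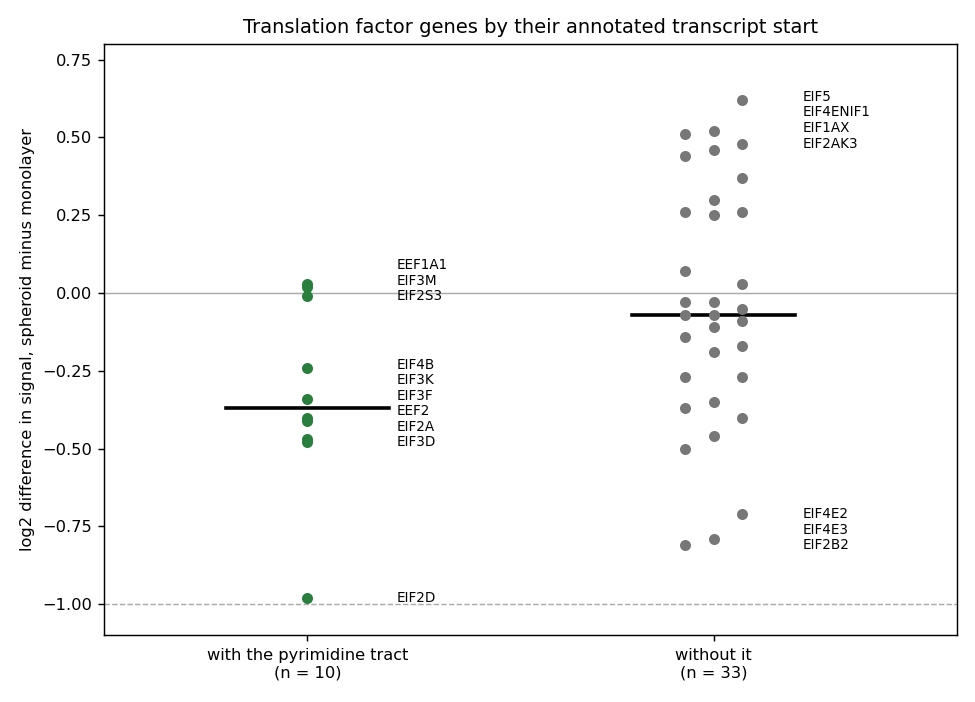
Log2 difference in signal, spheroid minus monolayer, of members with (green) and without (gray) a pyrimidine tract at the annotated start, with medians as black lines at -0.37 and -0.07. The 10 members with the tract lie at or below 0.03, and those without it spread from -0.81 to 0.62.

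Ribosomal proteins and aminoacyl-tRNA synthetases, the groups most like the factors in function, differed less or similarly. The 57 measured ribosomal protein genes had a median of -0.08 and an SD of 0.18 across genes, about as far below 0 as the factors but more tightly spread than their 0.38. Many of these genes gave signals near the top of the arrays, such as RPL37A with 60889 in spheroids and 61873 in monolayer. Such signals may be saturated, which was not tested, so the median and spread are not compared at like brightness. The 17 cytosolic synthetases had a median of -0.13 and an SD of 0.27. Neither group had a gene past 2-fold.

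Genes that act on or beside the factors were described from 4 lists, of which 36 of 40 genes were measured, with a median of 0.10 and 20 above 0. One of them passed 2-fold, PAIP1, a partner of the poly(A)-binding protein that stimulates initiation through eIF4A and eIF3, with 4719 in spheroids and 2171 in monolayer, 2.17-fold higher (1.12). This is 1 of 36 genes, beside 2.53% of all genes. The poly(A)-binding protein gene PABPC1 itself had 46055 in spheroids and 47191 in monolayer (-0.04), and the inhibitor PAIP2 had -0.01. The 6 measured genes of that list had a median of 0.14.

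Of the 12 measured helpers of initiation, termination and recycling, 9 were above 0, beside 45.2% of all genes, with a median of 0.22. In 10 of the 12 the difference was within 0.41 of 0, the SD between probe sets of a gene. DHX29, a helicase for scanning through structured leaders, had 2483 in spheroids and 1342 in monolayer (0.89), and DDX3X, another helicase of initiation, had 15865 in spheroids and 11991 in monolayer (0.40). GSPT1, the release factor eRF3a, went the other way with 4164 in spheroids and 7439 in monolayer (-0.84). GSPT2 and PDCD4, the inhibitor of eIF4A, were under the floor on both arrays.

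Kinases and phosphatase subunits that act on the factors were mixed, with 4 of 11 above 0 and a median of -0.07. MTOR had 278.9 in spheroids and 539.3 in monolayer, 1.93-fold lower (-0.95), and MKNK2, a kinase of eIF4E, had 8794 in spheroids and 12882 in monolayer (-0.55). MTOR is dim on both arrays, and dim probe sets of the members spread more widely than bright ones. For the genes of the 4 lists, agreement between probe sets was not examined. The eIF2 phosphatase subunits PPP1R15A and PPP1R15B had differences of 0.45 and 0.30, and GCN1, the activator of GCN2, had -0.31, the same side of 0 as the kinase itself. Among the enzymes of hypusine and diphthamide, which modify eIF5A and eEF2, 3 of 7 were above 0 and the median was -0.19, with DHPS at -0.51, DOHH at 0.57 and DPH5 at -0.61.

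**Figure D5:**
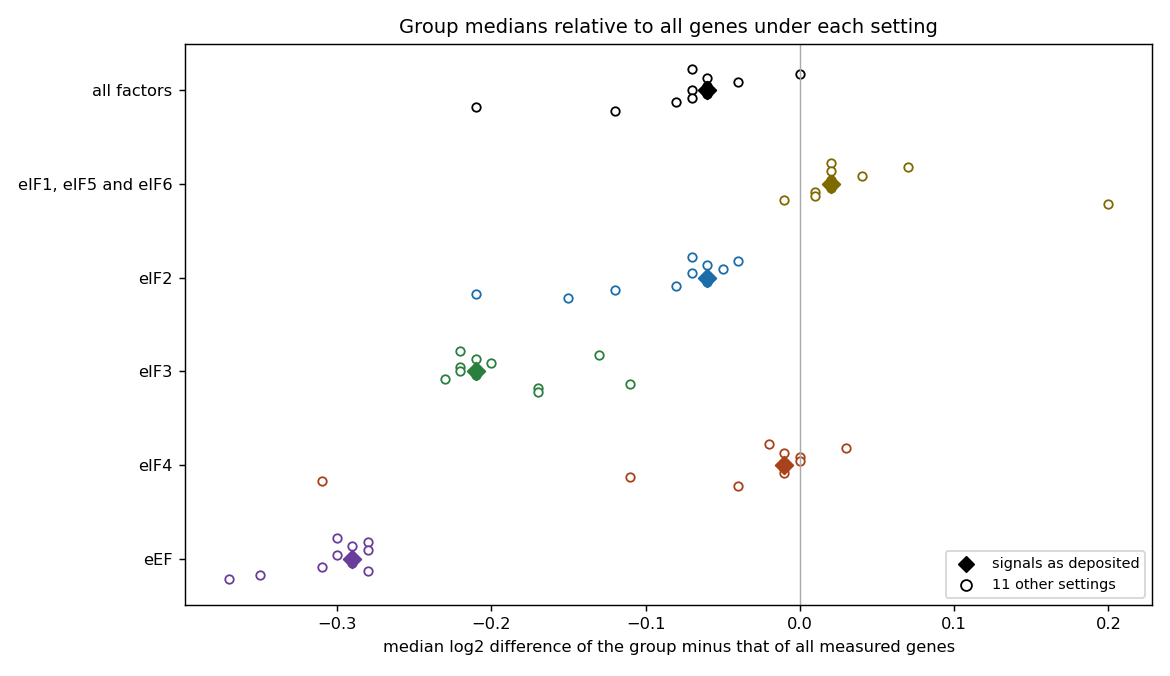
Median log2 difference of each group minus that of all measured genes with the signals as deposited (diamonds) and under 11 other settings of scaling, floor and choice of probe set (circles). The eEF group stays between -0.37 and -0.28 and eIF3 between -0.23 and -0.11. The other groups come to 0 or close to it in some settings, but not in all. Where its most divergent probe set stands for each gene, eIF4 is at -0.31 and eIF2 at -0.21, both below eIF3 at -0.17. Where the median over probe sets is used, eIF2 is at -0.12 and eIF4 at -0.11, beside -0.11 for eIF3.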

How the data were processed

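RNA of HT-29 spheroids and of HT-29 monolayer was hybridised to 1 Affymetrix array each. The methods describe duplicates, and 1 array per condition was analysed here. Signals were made by the authors with the MAS5 algorithm in Affymetrix Expression Console and deposited as intensities on a linear scale, for 54675 probe sets without detection calls. The number of arrays limits the precision, and no test was run.

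All further steps used Python 3.11.15 (pandas 2.3.3, numpy 2.4.6, matplotlib 3.10.9). The platform annotation gives 41097 probe sets a single gene, and 41043 of these were matched to symbols of the RefSeq table of GRCh38.p14. Signals were raised to the floor (50th percentile) where lower and put on the log2 scale, which understates differences of genes near it. Each gene was represented by its brightest probe set, by mean log2 signal, and signals are compared within a probe set only. Called means past the fold. Left out were 4 noncoding transcripts named after members. EEF1B2, EEF1G, EIF3CL, EIF4A1 and EIF4EBP3 have only probe sets shared with other genes and are no members.

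The members, lists and alternatives were chosen with earlier results of these data known. Genes named are those past 2-fold, up to 4 with the largest difference in each group and direction, the 4E-binding proteins, the eIF2 kinases, paralog pairs and members with discordant probe sets, and others complete their complex. Genes of the pathway lists were picked for naming after their values were seen. Alternatives were 4 scalings (median, quantile, GAPDH, spike-ins), no floor, other floors (75th percentile, or 95th percentile of olfactory receptor probe sets), a pseudocount of 15.9 (25th percentile), 3 choices of probe set and a 3-fold threshold. The computation was tested on simulated data.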

Additional observations from a re-analysis of the deposited data

How the results depend on the processing

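Scaling to the hybridisation spike-ins moved the median of all genes by 0.23 and with it most group medians across 0: all members to 0.13, eIF1, eIF5 and eIF6 to 0.21, eIF2 to 0.13, eIF4 to 0.18 and members without the pyrimidine tract to 0.18. It also changed the sign of 14 of 56 members, put 34 above 0 (67.2% of all genes) and put 1, EEF1AKMT1, past 2-fold higher. Of all 13234 genes in that setting, 700 were 2-fold higher. The median of eIF1, eIF5 and eIF6 was 0.01 after quantile normalization. With plain _at probe sets only, which 44 members have, it was 0.17, and the median of members without the tract was 0.07. In that setting 1 member, EIF3F, was 2-fold higher, beside 321 of all 10204 genes. Median scaling and GAPDH scaling each put 1 member, EIF2D, at 2-fold lower, beside 498 and 422 of all 13183 genes. The probe set with the largest difference gave 3 of 56 members higher (EIF2AK1, EIF3F, EIF3M) and 3 lower (EIF1, EIF4E2, EIF4E3). Of all 13261 genes in that setting, 791 were higher and 716 lower by 2-fold. At 3-fold there was none either way.

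The medians of eIF3 and eEF and of members with the tract (-0.45 to -0.12) stayed below 0 in all settings. The tract was defined after the signals had been seen, and its members overlap eIF3 and eEF. No named gene moved by more than 0.41 under other scalings or floors. With the median of its probe sets 4 genes moved by more, EIF2AK1 (0.49), EIF2S1 (0.43), EIF3F (0.42) and EIF3M (0.46), all of them then above 0. The other choices of probe set moved more genes by that much. The probe set with the largest difference moved 12 of 56, and plain _at probe sets only moved 6 of 44. No paired analysis was possible because each condition has 1 array. Dim probe sets, with an SD of 0.62 against 0.38 for bright ones, limit what single members can show, and without a second array no difference given here can be set against replicate error.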

Other observations

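Noncoding transcripts named after members, which the choice of members left out, had values of their own. EIF3J-DT, divergent to EIF3J, had 157.0 in spheroids and 406.1 in monolayer (log2 difference -1.37), while EIF3J was at 0.26. EIF2AK3-DT had 100.2 in spheroids and 137.6 in monolayer (-0.46), while EIF2AK3 was at 0.48. EIF1B-AS1 was above the floor in spheroids only (78.8, against 58.3 in monolayer), and EIF2AK3-AS1 in monolayer only (5.39 in spheroids, against 75.1 in monolayer). These 4 transcripts were singled out after their values were seen.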
